A study of Mus musculus with 8 samples.

Results

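RFX transcription factors are a family of DNA-binding proteins named for the regulatory factor that binds the X box, and 6 of its genes were examined here: Rfx1, Rfx2, Rfx3, Rfx4, Rfx5 and Rfx7. They were taken as all probe sets whose single platform gene symbol is one of these names, which gave 13 of the 45101 probe sets in the table and 6 of its 18194 named genes. The family was selected on the immunoprecipitate and unbound values of Rfx4 themselves, which were already known to differ strongly, so the comparison of fractions is given below as a description of these genes, without a test of them.

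All RFX proteins share a winged-helix domain that binds the X box, a DNA element made of a pair of mirrored arms. Rfx2 and Rfx3 are known for switching on genes of the cilium, the microtubule-based projection that carries hedgehog signalling or, where it beats, moves fluid over ependymal cells. Rfx4 is known from the developing brain, from glial and neural progenitor cells and from the suprachiasmatic nucleus, the hypothalamic clock. Rfx5 works with the proteins Rfxap and Rfxank at the promoters of MHC class II genes, which present antigen. Rfx1 is a broadly expressed regulator that can activate or repress, and Rfx7 is best known from lymphoid cells.

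The study used translating ribosome affinity purification, in which a transgene tags the ribosomes of a chosen cell type so that the RNA bound to them can be pulled down. The animals were transgenic mice of the line Hcrt JD218, made with a bacterial artificial chromosome and named for the hypocretin gene, on a mixed Fvb and c57/bl6j background, and were adults of 6 to 12 weeks and of both sexes. Thalamus and hypothalamus were dissected together and each preparation pooled 5 mice. 4 immunoprecipitates, which hold ribosome-bound RNA, were compared with 4 unbound fractions left over from those same preparations, a proxy for total tissue RNA, on 8 Affymetrix mouse arrays. Arrays with the same replicate number in their titles were taken as fractions of the same preparation. All 8 samples came from transgenic mice, so the arrays include no precipitate from mice without the tag.

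Values are on the log2 scale, and a linear value of 50, which is 5.64 on that scale, was the minimum for a probe set to count as measured on an array. As a check of the labels, Hcrt averaged 15.36 ± 0.17 over the immunoprecipitates against 10.33 ± 0.55 over the unbound arrays (SD, n = 4 each). Poly-A spike controls, which follow the amplification, averaged 10.03 to 11.22 on the immunoprecipitate arrays and 7.17 to 10.55 on the unbound arrays, and their part in the results was not tested. The 3' minus 5' signal of Actb, a sign of RNA quality, was 3.14 to 4.11 in the immunoprecipitates and 3.01 to 3.80 in the unbound fractions. That of Gapdh was 2.31, 2.12, 2.27 and 4.50 in immunoprecipitates 1 to 4 and 2.08, 1.97, 1.94 and 3.36 in the unbound fractions. It was higher in the immunoprecipitate of every preparation and highest in replicate 4 of both fractions, where Rfx4 also differed most, and its part in the results was not tested. With 4 arrays a group, precision is limited.

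The promoter windows of 3 genes that the results turn on are shown because 1 of them was higher in the immunoprecipitate and the others lower. They come from RefSeq (GRCm38.p6), run 5′ to 3′ on the gene's strand from 250 bases before to 50 bases after an annotated start, and all 6 genes matched the table by symbol, Rfx4 with 2 start sites. Capitals mark each GTTGCC or GTTACC, read on either strand, which are the letters of an X-box arm.
Rfx4, first start, chr10:84755798-84756097, plus strand: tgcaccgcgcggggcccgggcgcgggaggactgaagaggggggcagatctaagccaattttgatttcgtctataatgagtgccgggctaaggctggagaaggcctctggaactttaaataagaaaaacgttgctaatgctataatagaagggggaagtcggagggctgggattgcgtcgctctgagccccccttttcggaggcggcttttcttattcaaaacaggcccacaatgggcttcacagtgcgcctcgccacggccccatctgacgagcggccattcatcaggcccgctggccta
Rfx4, second start, chr10:84837898-84838197, plus strand: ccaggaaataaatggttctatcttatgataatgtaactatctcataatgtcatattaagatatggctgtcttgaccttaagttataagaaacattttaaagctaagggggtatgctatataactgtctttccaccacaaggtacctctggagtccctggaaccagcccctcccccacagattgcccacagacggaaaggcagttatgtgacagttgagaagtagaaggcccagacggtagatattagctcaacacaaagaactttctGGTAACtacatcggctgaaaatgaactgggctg
Rfx1, chr8:84066586-84066885, plus strand: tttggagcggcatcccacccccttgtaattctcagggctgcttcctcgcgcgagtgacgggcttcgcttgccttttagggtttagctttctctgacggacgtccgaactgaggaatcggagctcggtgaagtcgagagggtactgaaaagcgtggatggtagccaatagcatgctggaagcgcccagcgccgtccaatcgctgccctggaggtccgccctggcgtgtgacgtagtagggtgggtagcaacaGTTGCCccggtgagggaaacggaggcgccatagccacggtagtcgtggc
Rfx3, chr19:28011117-28011416, minus strand: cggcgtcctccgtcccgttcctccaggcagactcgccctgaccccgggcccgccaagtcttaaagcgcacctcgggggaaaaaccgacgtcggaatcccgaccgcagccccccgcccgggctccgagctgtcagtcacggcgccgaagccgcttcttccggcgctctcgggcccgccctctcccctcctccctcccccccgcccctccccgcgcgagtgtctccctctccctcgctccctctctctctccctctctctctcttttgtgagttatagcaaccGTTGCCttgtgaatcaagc

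The first Rfx4 window held no such arm and the second held 1, with its first base at position 18 counted from the start site as 1. In the Rfx1 window the arm began at position 2 and in the Rfx3 window at position 32. Of the 7 windows of the family 5 held at least 1 arm, where 18.6% of all 32851 windows of this length did. The windows of Rfx4 at its first start and of Rfx7 were the 2 without one. A full X box, searched as GTTNCC followed by GGNAAC with 0 to 3 bases between them, was in none of the 7 windows and in 0.804% of all windows. These matches describe letters and were not tested as binding sites.

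Rfx4 was the RFX gene with more signal in the immunoprecipitate, and Rfx1, Rfx3 and Rfx7 had less. 6 of the 13 probe sets, standing for 5 genes, reached the minimum on at least 4 arrays and entered the limma fit over 17865 probe sets. By the threshold used across the array, an adjusted p under 0.05 and at least 2-fold, 1 of them was called higher, against 4.88% of all tested probe sets, and 4 were called lower, against 45.1%. Nothing is read from these counts: the higher one is Rfx4, whose values chose the family, and the Rfx1 probe set entered only through the unbound arrays, where it is high. Between immunoprecipitate and unbound arrays the median tested probe set had a log2 difference of -0.87, so each RFX value is also set against that median. Both fractions came from the same pooled tissue, and these bulk values do not show which cells a difference comes from.

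**Figure D1:**
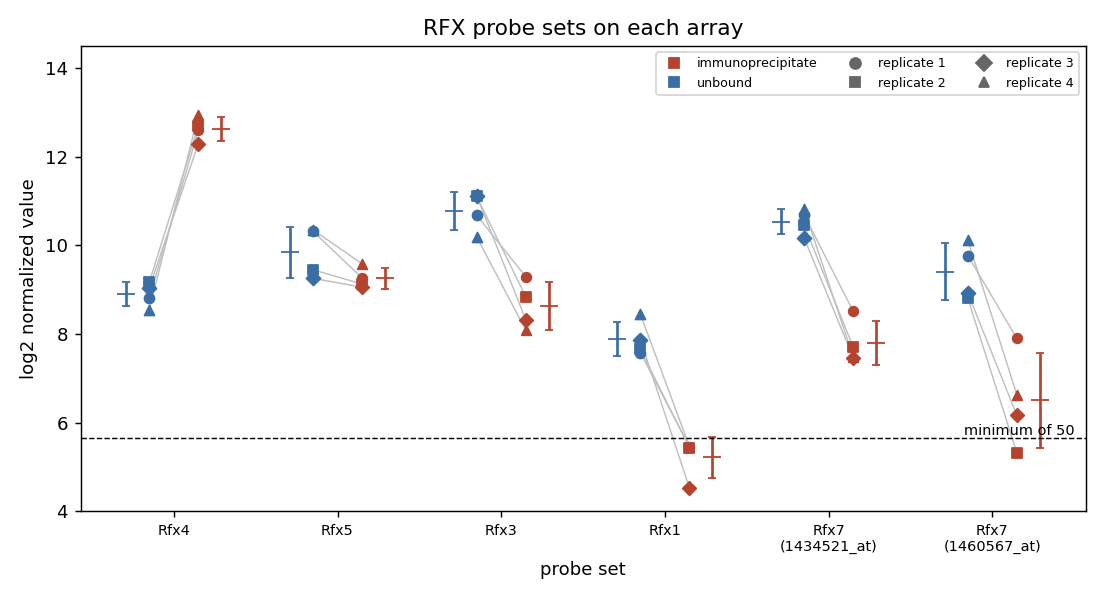
Log2 normalized value (y axis) of the 6 measured RFX probe sets (x axis) on each of the 8 arrays, in blue for the unbound fraction and red for the immunoprecipitate, with a marker per replicate, grey lines joining fractions of the same preparation, and bars for the mean ± SD (n = 4). The Rfx4 immunoprecipitates lie at 12.30 to 12.94 and the unbound arrays at 8.55 to 9.17, while Rfx1 lies under the dashed minimum of 50 on every immunoprecipitate array.

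The measured Rfx4 probe set (1436931_at) read 12.60, 12.69, 12.30 and 12.94 in immunoprecipitates 1 to 4 and 8.81, 9.17, 9.04 and 8.55 in unbound fractions 1 to 4. Every immunoprecipitate array was above every unbound array, as for 6.85% of tested probe sets in that direction. The means were 12.63 ± 0.27 and 8.89 ± 0.27 (SD, n = 4 each), a difference of 3.74 ± 0.21 (SE), or 13.3-fold. Within the 4 preparations the fold was 13.7, 11.5, 9.53 and 21.0, with replicate 4 the largest because its immunoprecipitate was the highest and its unbound fraction the lowest of their groups. Relative to the median probe set the difference was 4.61.

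Rfx4 was also measured well above the minimum in the unbound fraction, so its fold is no bound. Among the 8417 genes at or above 50 on all 8 arrays, its difference was the 9th from the top. Over all 10398 tested genes, which include genes under 50 on some arrays, its rank was 44. Its SD was smaller than that of most tested probe sets in both fractions, at 0.27 against a median of 0.40 among immunoprecipitates and 0.37 among unbound arrays. The second Rfx4 probe set (1432053_at) stayed between 2.15 and 2.44 on all 8 arrays, under the minimum and close to the lowest values in the table. It therefore gave no fold, and the gain of Rfx4 rests on 1 probe set.

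Rfx3, a factor of cilium formation, was lower in the immunoprecipitate. It read 9.29, 8.84, 8.32 and 8.08 in immunoprecipitates 1 to 4 and 10.68, 11.10, 11.12 and 10.19 in the unbound fractions. The groups did not overlap, as for 50.1% of tested probe sets in that direction. The means were 8.63 ± 0.54 and 10.77 ± 0.44 (SD, n = 4 each), a difference of -2.14 ± 0.32 (SE), or 4.41-fold lower. It was lower in all 4 preparations, by 2.62-fold in replicate 1 and by 4.79-, 6.96- and 4.31-fold in replicates 2, 3 and 4. Relative to the median probe set the difference was -1.27. The second Rfx3 probe set (1425413_at) was at 2.20 and 2.15 on the arrays of the 2 groups, the lowest value of each.

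Rfx2, the other factor best known from ciliated cells, was not measurable. Its 4 probe sets stayed between 2.15 and 3.43 on all 8 arrays, under the minimum, so no fold is given. These values give no more than that bound.

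Rfx1 (1436059_at) read 7.58, 7.65, 7.87 and 8.45 in unbound fractions 1 to 4 and 5.45, 5.43, 4.52 and 5.46 in the immunoprecipitates, where all 4 arrays were under 5.64. Its unbound mean was 7.89 ± 0.39 and its immunoprecipitate mean 5.22 ± 0.46 (SD, n = 4 each). Against the minimum this makes Rfx1 at least 4.77-fold lower. The other Rfx1 probe set (1422109_at) was under the minimum on all arrays, at 2.15 to 2.20.

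Rfx7 had 2 measured probe sets, and both were lower. The brighter (1434521_at) read 8.51, 7.70, 7.46 and 7.48 in immunoprecipitates 1 to 4 and 10.69, 10.46, 10.17 and 10.82 in the unbound fractions. Its means were 7.79 ± 0.49 and 10.54 ± 0.29 (SD, n = 4 each), a difference of -2.75 ± 0.29 (SE), or 6.71-fold lower, and -1.87 relative to the median probe set. Immunoprecipitate replicate 1 stood above the other 3, and the groups did not overlap.

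The dimmer Rfx7 probe set (1460567_at) was more variable. It read 7.90, 5.31, 6.16 and 6.62 in the immunoprecipitates, with replicate 2 under the minimum, and 9.77, 8.80, 8.92 and 10.12 in the unbound fractions. With the value under 50 raised to it, Rfx7 was at least 7.08-fold lower by this probe set. Its immunoprecipitate SD of 1.08 exceeded that of 96.1% of tested probe sets. Deviations from the group means of the 2 Rfx7 probe sets correlated at 0.78 over the 8 arrays, which share the RNA of both, so they are not independent measures of Rfx7.

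Rfx5, the factor of MHC class II promoters, differed by less than the 2-fold threshold on the scale used here. It read 9.26, 9.13, 9.05 and 9.58 in the immunoprecipitates and 10.32, 9.45, 9.26 and 10.35 in the unbound fractions. The groups overlapped. The means were 9.26 ± 0.23 and 9.84 ± 0.57 (SD, n = 4 each), a difference of -0.59 ± 0.30 (SE), or 1.5-fold. Within preparations it was 2.08-fold lower in replicate 1, 1.25-fold in replicate 2, 1.15-fold in replicate 3 and 1.70-fold in replicate 4. Relative to the median probe set it was 0.29, and its sign turned with the scaling, to 0.34 after median centring and 0.20 after quantile normalization. With the poly-A shift it was -2.55 and met the threshold for a lower call.

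**Figure D2:**
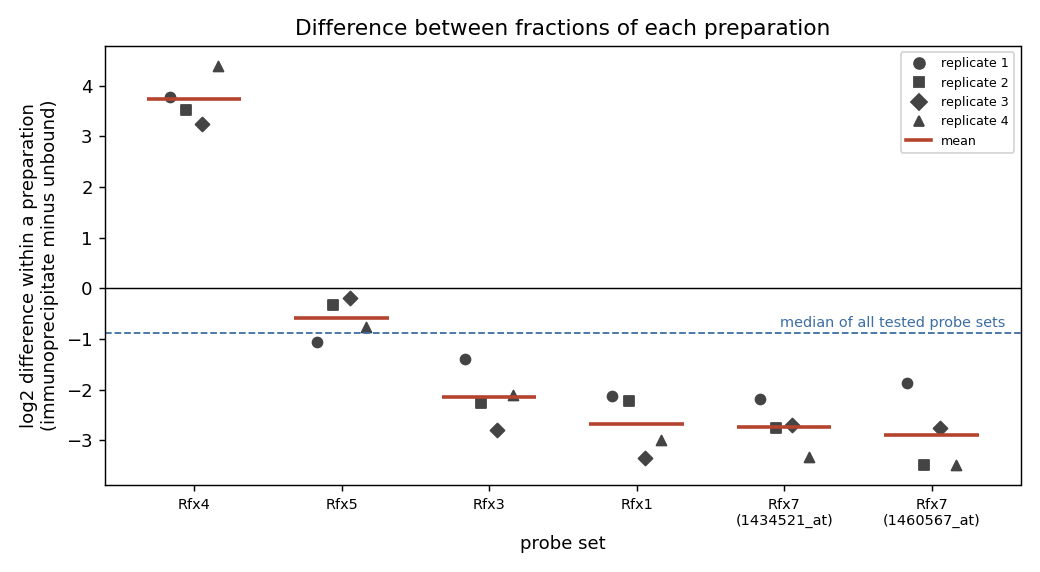
Log2 difference between the immunoprecipitate and the unbound fraction of the same preparation (y axis) for the 6 measured RFX probe sets (x axis), with a marker per replicate, a red line at the mean and a dashed line at the median of all tested probe sets, -0.87. Rfx4 lies at 3.25 to 4.39 in all 4 preparations, Rfx5 at -1.05 to -0.20, and the probe sets of Rfx1, Rfx3 and Rfx7 below the dashed line in every preparation.

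The profile of Rfx4 over the arrays was compared with those of the 10397 other tested genes by the root mean square distance between log2 values centred on each gene's mean over the 8 arrays. The median distance was 2.33. The 6 nearest genes were Bace2 at 0.23, AI839979 at 0.25, Sag at 0.29, 2410004I01Rik at 0.30, Nptx2 at 0.31 and Fuca1 at 0.33. Nptx2, a secreted pentraxin of synapses, was 14.1-fold higher and Fuca1, a lysosomal fucosidase, 10.6-fold higher, both measured on all 8 arrays. Bace2, an aspartyl protease, and Sag, the arrestin of photoreceptors, were under 50 on all 4 unbound arrays, as were the other 2, so their folds are bounds of at least 1.41 for Bace2 and 6.16 for Sag. The distances of these 4 genes, and so their order, rest in part on unbound values under the minimum.

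Gene length went with the difference between fractions over all tested genes, as described by the lengths of the RefSeq gene models (GRCm38.p6), and Rfx4 lay apart from the genes of its own length. The tested genes were put in 5 classes of nearly equal size by length. In the longest class, genes of 81.0 kb and more, the median difference was -1.54, with 3.09% of 2073 genes called higher and 66.5% called lower. Rfx4 spans 150.5 kb and stood 5.28 above that median. Among the 1604 genes of this class measured on all 8 arrays, Rfx4 was the 1 gene with a difference as large as its own. The family was chosen for this large difference, so the place of Rfx4 among these genes is no test of it. Rfx3, at 252.9 kb, and Rfx7, at 90.8 kb, belong to the same class and stood at -0.60 and -1.20 from its median. Rfx1, at 33.4 kb and under the minimum on every immunoprecipitate array, had a fitted value -1.86 from the median of its class. Rfx5, at 10.9 kb, was -0.06 from that of its class. All of these set the RFX values against a background of other genes and are descriptions.

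**Figure D3:**
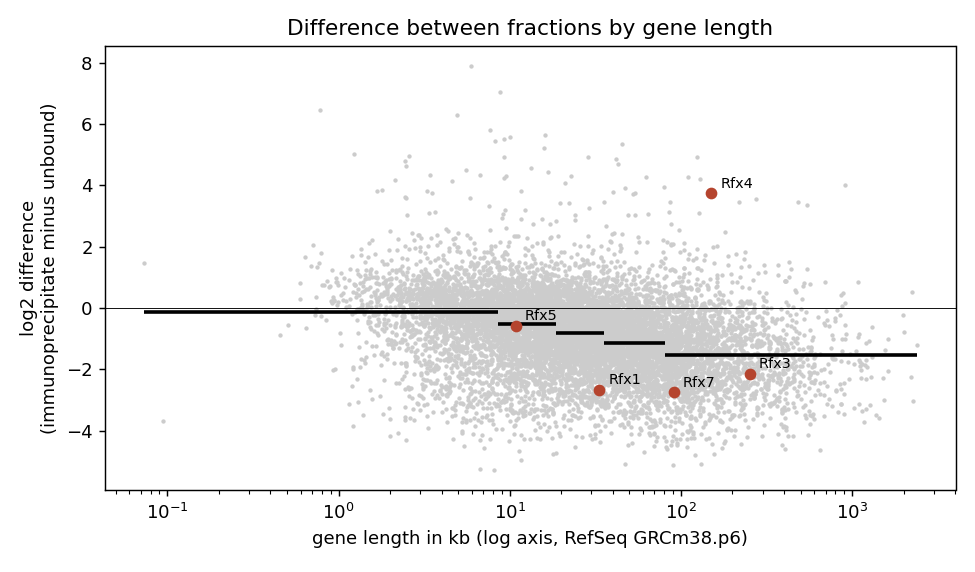
Log2 difference between immunoprecipitate and unbound fraction (y axis) against gene length in kb (x axis, log scale) for the tested genes, with grey points for genes, black lines at the median of each of 5 length classes and red points for the RFX genes. Rfx4, at 150.5 kb and 3.74, lies 5.28 above the median of the longest class, where Rfx3 and Rfx7 lie below it. The Rfx1 point is a fitted value, not a bound.

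Partners of Rfx5 were examined next, from lists written with earlier results of these data known. Of 7 genes for its complex and promoter cofactors 6 were tested, 4 were called lower and 0 higher, with a median of -1.56 (-1.20 with genes under 50 at their bound). Over all 10398 tested genes 44.2% were called lower and 4.74% higher, and the median was -0.85. The call counts on the list moved with the scaling, to 1 lower with median centring, 2 with quantile normalization and all 6 on the poly-A controls.

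The 2 proteins that form the complex with Rfx5 gave no clear difference by their brightest probe set. Rfxap averaged 9.31 ± 0.26 against 9.72 ± 0.26 unbound (SD, n = 4 each, limma adjusted p = 0.14), and Rfxank at 6.69 ± 0.59 and 7.03 ± 0.49 (SD, n = 4 each, limma adjusted p = 0.42). A dimmer probe set disagreed for each gene. For Rfxap it gave -1.16 on the log2 scale (limma adjusted p = 0.0055). For Rfxank it gave -1.76 (limma adjusted p = 0.0011), but all 4 immunoprecipitate arrays were under the minimum, so the fold is at least 1.41. Ciita, the coactivator that switches MHC class II genes on, stayed under the minimum on all 8 arrays by its 3 probe sets.

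The cofactors that bind beside the RFX complex were lower. Creb1, the cyclic AMP response factor, fell 5.46-fold (limma adjusted p = 0.0021), with its immunoprecipitates at 9.45, 6.84, 8.59 and 9.19 and every unbound array above them. The NF-Y subunit Nfyc fell 3.40-fold (limma adjusted p = 3.1e-05). Nfyb fell 2.75-fold (limma adjusted p = 0.020), but its groups overlapped, its call was lost without immunoprecipitate replicate 2 or 3 or unbound replicate 1 or 4, and its difference was then -1.39 to -1.12 on the log2 scale. Nfya was at least 1.91-fold lower (limma adjusted p = 0.0032), with no immunoprecipitate array at the minimum. After median centring Creb1 alone of the 4 kept its call, and after quantile normalization Creb1 and Nfyc did.

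MHC class II genes, the classical targets of the Rfx5 complex, were almost without signal in both fractions. Of 9 listed genes on the array 1, H2-DMa, was tested. It read 5.61, 7.13, 7.41 and 7.77 in the immunoprecipitates and 5.70, 6.69, 7.05 and 6.85 in the unbound fractions, so the groups overlapped (limma adjusted p = 0.48), but it was called higher after median centring (1.33) and quantile normalization (1.59) and lower on the poly-A controls (-1.56). Cd74, the invariant chain, averaged 2.83 and 3.22, under the minimum on all 8 arrays.

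Genes of cilium assembly, a set that RFX factors are known to switch on, mostly kept near the median of all genes. Of 43 listed genes for intraflagellar transport and the Bardet-Biedl proteins 39 were tested, 15 were called lower and 2 higher, with a median of -0.77 against -0.85 over all genes. These counts are near the shares over all genes, 44.2% lower and 4.74% higher, so the genes named next are examples and not a result about the list. Wdr60, a dynein-2 subunit, was at least 1.78-fold lower (limma adjusted p = 4.0e-05), but it entered the fit only through the unbound arrays. Of the Bardet-Biedl genes, Bbs7 was at least 4.79-fold lower (limma adjusted p = 4.3e-05) and Bbs1 4.28-fold lower (limma adjusted p = 5.9e-05). Ift22 of the transport complex rose 2.58-fold (limma adjusted p = 0.0028), and Wdr34, another dynein-2 subunit, rose 2.14-fold (limma adjusted p = 0.031). On the poly-A controls both changed sign and lost their calls, at -0.60 for Ift22 and -0.87 for Wdr34. The Wdr34 call also ended when low probe sets were kept, and when immunoprecipitate replicate 2, 3 or 4 or unbound replicate 1, 2 or 3 was left out, with a difference of 0.83 to 1.12 in those 6 fits. After median centring 5 genes of the list were higher and 4 lower.

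Motile cilium and ependymal genes were largely unmeasured. Of 24 listed genes 8 were tested, 5 were called lower and 2 higher, with a median of -1.45 (-0.70 with bounds), where 44.2% of all tested genes were lower and 4.74% higher with a median of -0.85. Of the 5 lower genes 2 entered only through the unbound arrays. Foxj1, which drives motile cilium formation together with RFX factors, stayed at 2.22 to 2.37 on all arrays. Ccdc39, an axonemal protein, was at least 2.54-fold lower (limma adjusted p = 5.5e-06), Ccdc153 at least 6.22-fold (limma adjusted p = 0.0018) and the dynein light chain Dynlrb2 at least 3.86-fold (limma adjusted p = 0.012). The Dynlrb2 call was lost after median centring (-1.03), quantile normalization (-0.93) and at a 4-fold threshold. The radial spoke genes Rsph9 and Rsph1 rose 2.52-fold (limma adjusted p = 0.011) and 2.42-fold (limma adjusted p = 0.013), but the groups overlapped for both, and on the poly-A controls they gave -0.63 and -0.69 with no call.

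Hedgehog pathway genes, whose signal passes through the cilium, were lower. Of 14 listed genes 10 were tested, 9 were called lower and 0 higher, with a median of -2.45 (-1.60 with bounds), where 44.2% of all tested genes were lower and 4.74% higher with a median of -0.85. The hedgehog-binding proteins Hhip and Cdon were at least 3.47- and 3.07-fold lower (limma adjusted p = 3.9e-05 and 9.3e-07), and the transcription factor Gli2 at least 2.72-fold (limma adjusted p = 1.1e-05). These 3 were among 4 of the 9 lower genes that were under 50 on all 4 immunoprecipitate arrays and so entered the fit only through the unbound arrays. Their adjusted p-values rest on immunoprecipitate values under the minimum, as do those of Nfya, Wdr60, Ccdc39 and Lhx1. Both median centring and quantile normalization left 7 of the 10 called lower, and on the poly-A controls all 10 were.

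**Figure D4:**
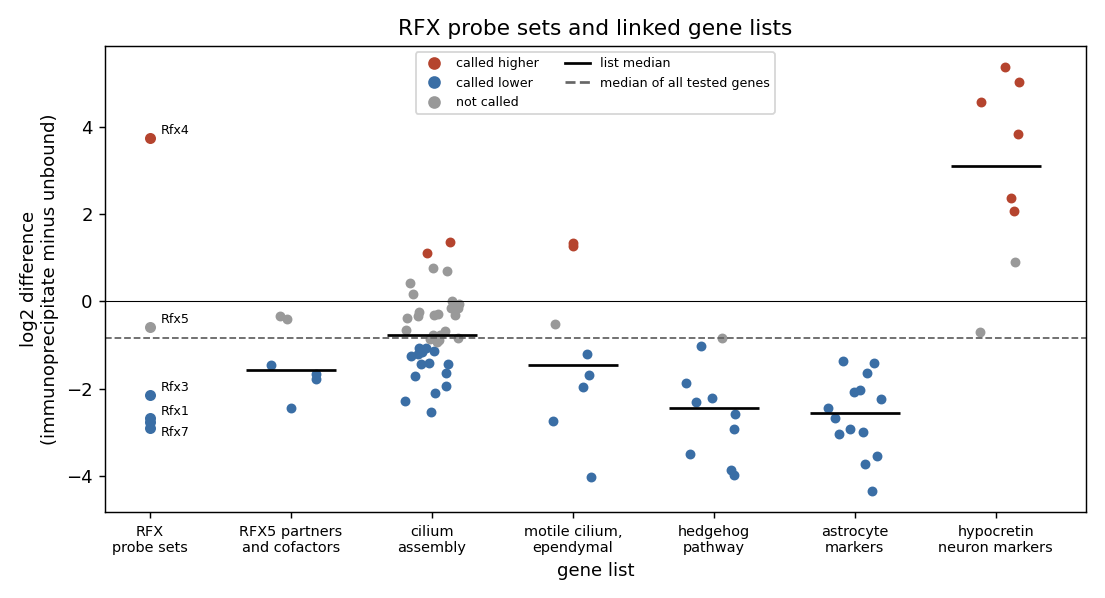
Log2 difference between immunoprecipitate and unbound fraction (y axis) for the RFX probe sets and for the tested genes of 6 lists (x axis), coloured by limma call, with a black line at each list's median and a dashed line at the median of all tested genes, -0.85. Rfx4 lies at 3.74, the value that chose the family. The hypocretin neuron markers run from -0.69 to 5.36 (median 3.10), and the 14 astrocyte markers from -4.34 to -1.36 (median -2.55). Values of genes under the minimum in a fraction are fitted values, not bounds.

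Markers of other cells that are known to express RFX genes are given beside these values. All 14 astrocyte markers were called lower. Their list mean was 6.80 to 8.24 on the immunoprecipitate arrays and 10.09 to 10.25 on the unbound arrays. The summed linear signal of these markers was 6845 to 18640 in the immunoprecipitates and 44155 to 49987 in the unbound fractions. Sox9 and S1pr1 were under 50 on all 4 immunoprecipitate arrays and so entered the fit only through the unbound arrays. Aldoc and Gja1, the brightest of the 14, fell 2.56- and 4.73-fold (limma adjusted p = 0.0016 and 0.0013). After median centring Aldoc was at -0.43 and not called. Over all tested genes 44.2% were called lower and 4.74% higher. Of 8 genes listed as suprachiasmatic markers 3 were tested. All 3 were called lower, and little is read from so few genes beside that share. Thalamus and hypothalamus were dissected together, and whether the signal of these genes came from the suprachiasmatic nucleus was not tested. Of the 3, Lhx1 entered the fit only through the unbound arrays. Avp fell 9.70-fold (limma adjusted p = 0.00014), Vip was at least 7.30-fold lower (limma adjusted p = 0.00030) and Lhx1 at least 1.58-fold (limma adjusted p = 3.5e-06). Their summed signal was 83.4 to 152.8 in the immunoprecipitates and 702.4 to 2256 in the unbound fractions.

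The markers of microglia and of oligodendrocytes were lower too, where 44.2% of all tested genes were called lower and 4.74% higher. All 8 tested of 10 microglial markers were called lower, with a list mean of 5.52 to 7.08 in the immunoprecipitates and 8.65 to 9.10 in the unbound fractions. C1qa, C1qc and Cx3cr1 were under 50 on all 4 immunoprecipitate arrays and so entered the fit only through the unbound arrays. All 9 tested of 10 oligodendrocyte markers were called lower, at 9.40 to 10.96 and 12.38 to 12.81. After median centring 4 of these 9 oligodendrocyte markers, 6 of the 8 microglial markers and 11 of the 14 astrocyte markers were called lower, and after quantile normalization 8, 5 and 11. The call of Mag, a myelin glycoprotein, also ended without immunoprecipitate replicate 4 or unbound replicate 3 or 4. Of 8 hypocretin neuron markers 6 were called higher, 0 lower and 2 neither (4 higher and 2 lower on the poly-A controls), with list means of 12.52 to 13.04 and 9.82 to 10.05. The part of these other cell types in the RFX values was not tested.

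The size of the RFX differences moved with the scale. Those of Rfx1 and of the dimmer Rfx7 probe set are fitted values that include immunoprecipitate readings under the minimum. On the poly-A controls, a scale whose constants rest on widely spread controls, Rfx4 gave 1.77, Rfx3 -4.11, Rfx1 -4.64 and the 2 Rfx7 probe sets -4.71 and -4.87. Set against the median probe set of the same scale, Rfx4 ran from 3.78 to 4.72 over the 19 settings with a fit over all probe sets.

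**Figure D5:**
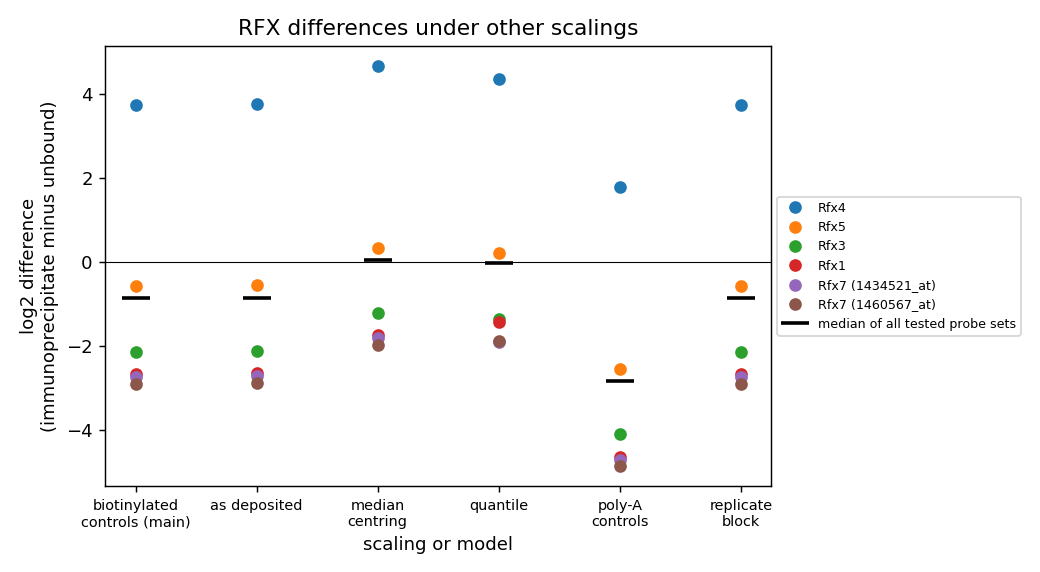
Log2 difference between immunoprecipitate and unbound fraction (y axis) of the 6 measured RFX probe sets under 5 scalings and with the replicate block (x axis), with a black bar at the median of all tested probe sets. Rfx4 runs from 1.77 on the poly-A controls to 4.66 after median centring and lies above the bar in each, Rfx5 lies near it, and Rfx1, Rfx3 and Rfx7 lie below it. Values of Rfx1 and of the dimmer Rfx7 probe set are fitted values, not bounds.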

How the data were processed

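RNA was measured on 8 arrays, 1 per sample, after 2-cycle amplification from 20 ng of RNA, per the labels' protocols. The authors deposited 1 normalized log2 value per probe set and array. Per the submitters' processing notes the tool was GCRMA (version: not given in the sources used here), and the design text states that groups were normalized separately. The groups were therefore shifted, by 1 constant each, to equal means of 18 biotinylated controls, which differed by 0.02 as deposited. The 64 control probe sets were left out, and probe sets at a linear value of 50 or more on at least 4 arrays were fitted with limma 3.58.1 in R 4.3.3 (lmFit, eBayes with trend, no block), with Benjamini-Hochberg adjustment. Adjusted p-values and the SE of each difference in the text are from this fit. Its SE draws on the variance of all tested probe sets, so it differs from one computed from the printed SDs. The fit was tested on simulated data.

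Folds are bounds where a fraction was under 50: values under it were raised to it. Names came from the platform annotation (34945 probe sets with 1 symbol, 932 with several, 9160 not listed). A gene in a list was represented by its brightest probe set. The members and lists were chosen with earlier results of these data known. Named were all RFX probe sets and Rfx5 partners, the 6 nearest profiles, up to 3 called genes per direction of each linked list, the brightest markers and Hcrt. Other named genes (Cd74, Foxj1, Sox9, S1pr1, C1qa, C1qc, Cx3cr1, Mag, Rfx8) were chosen after their values were seen.

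Same-numbered arrays were taken to come from the same preparation, and their deviations correlated at 0.44, 0.33, 0.25 and 0.59 across probe sets. Immunoprecipitate 2 with unbound 3 gave 0.26, and immunoprecipitate 3 with unbound 2 gave 0.24. These correlations therefore do not separate replicates 2 and 3. Read by their numbers, the 8 samples are 4 preparations, each split into 2 fractions. Alternatives were other shifts, filters, thresholds, no trend, the replicate block, the mean of probe sets and leaving out each array. Plots used matplotlib 3.10.9.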

Additional observations from a re-analysis of the deposited data

How the results depend on the processing

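The RFX differences are descriptions, and their size moved with the scaling. For Rfx1 and the dimmer Rfx7 probe set they are fitted values, not bounds. Median centring gave 4.66 for Rfx4, -1.75 for Rfx1, -1.22 for Rfx3, 0.34 for Rfx5, and -1.82 and -1.98 for Rfx7. Quantile normalization gave 4.36, -1.43, -1.36, 0.20, -1.90 and -1.88 in the same order, and the poly-A controls 1.77, -4.64, -4.11, -2.55, -4.71 and -4.87, with Rfx5 called lower on that scale. Leaving out 1 array gave 3.62 to 3.85 for Rfx4, -2.77 to -2.44 for Rfx1, -2.36 to -1.96 for Rfx3, -0.78 to -0.42 for Rfx5, and -2.99 to -2.64 and -3.37 to -2.51 for Rfx7.

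Probe sets called higher numbered 872, and 3666 after median centring, 3081 with quantile normalization, 125 by the poly-A shift, 1402 with no filter on low values, 1489 with no fold threshold and 257 at 4-fold. Those called lower numbered 8059, and 3789, 3726 and 16823 on these 3 scales and 3714 at 4-fold. These scales move the median of all tested probe sets from -0.87 to 0.05, -0.04 and -2.84. Of the 6 tested Rfx5 partners, 1, 2 and 6 were called lower on these 3 scales and 1 at 4-fold. Of the 10 tested hedgehog genes, 7, 7 and 10 were called lower on these 3 scales. MHC class II genes had 1 higher on the first 2 scales, 1 lower on the poly-A controls and 2 lower with no filter on low values. Cilium assembly genes had 5 higher and 4 lower, then 6 and 4, then 0 and 37 on the 3 scales, 1 higher with no filter, and 0 higher and 3 lower at 4-fold; leaving out 1 array gave 1 to 2 higher. Motile cilium genes had 2 lower after median centring, after quantile normalization, at a minimum of 100 and at 4-fold, and 0 higher on the poly-A controls and at 4-fold. Where the cause of such a move is not the setting's own construction, the cause was not tested.

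With the replicate block 931 probe sets were higher and 8192 lower, and the block changed no count on the linked lists. The lowest deposited value was 2.21 on immunoprecipitate and 2.14 on unbound arrays, and such values give no order between groups.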

Other observations

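Promoter windows of the linked genes differed in how often they held the letters of an X-box arm, GTTGCC or GTTACC on either strand. Of 24 windows of motile cilium and ependymal genes 16 held one (66.7%), and of 39 windows of cilium assembly genes 18 did (46.2%), where all windows gave 18.6%. None of 11 windows of hedgehog genes held one. The paired X box was in 3 of the 39 cilium assembly windows and in 0 of the 24 motile cilium windows. These shares describe the reference sequence and use no array values, but the lists were written with earlier results of these data known.

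On the arrays, the 15 tested cilium assembly genes with an arm in a window had a median difference of -0.88 on the log2 scale, with 7 called lower and 0 higher. The 19 without one had a median of -0.30, with 5 lower and 2 higher, and 5 genes had no window. Over all tested genes with a window the medians were -0.79 for 1782 genes with an arm and -0.83 for 6708 without. Of the former 742 were called lower and 85 higher, and of the latter 2941 and 311. The difference within the cilium list was not tested.

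Rfx8, a relative outside the 6 genes, had 1 probe set, at 2.42 on all 4 immunoprecipitate arrays and 2.15 on all 4 unbound arrays after the shift between groups, both under the minimum of 50, so no fold is given.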
